A study of Mus musculus with 32 samples.

Results

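The rod phototransduction cascade was examined through 9 genes in mouse brain tumors driven by MYC or MYCN. The genes were Gnat1, Pde6a, Pde6b, Pde6g, Cnga1, Cngb1, Sag, Rcvrn and Grk1, chosen by name for their role in the rod, with earlier results of these data known, and all 9 were found by Ensembl identifier among the 37310 genes of the tumor count table. Total RNA had been sequenced from biopsies of 6 GMYC tumors and 8 GTML tumors. The study describes GTML tumor data as partly generated earlier, and the labels do not mark which tumors. Origin of the data therefore cannot be fully told apart from the model. GMYC mice carry Glt1-tTA and TRE-MYC, so that a tetracycline-controlled transactivator made in cells with Glt1 promoter activity turns on MYC. GTML mice use the same Glt1-driven Tet-OFF system with MYCN. Both models were kept on the FVB/N strain, and expression of the transgene is limited to the cells in which the Glt1 promoter is active. The study's methods place these cells in the hindbrain, while its discussion describes abundant Glt1 in forebrain and hindbrain cells. The study describes GMYC tumors as clonal, so a biopsy may stand for 1 clone, and the labels give no ages. Cultured lines of both models were not analysed here.

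In a rod photoreceptor, the light receptor switches on the G protein transducin. Transducin relieves the inhibition of phosphodiesterase 6, the enzyme destroys cyclic GMP, and the cyclic nucleotide-gated channel of the outer segment closes. A receptor kinase and arrestin then silence the receptor, with recoverin holding the kinase back while calcium is high. Cones run the same cascade, with paralogs of the transducin, phosphodiesterase, channel and arrestin proteins. Pinealocytes share part of it, and medulloblastomas of Group 3, the human tumor type that these mice model, are known for transcripts of the photoreceptor program. FVB/N mice carry a mutation in Pde6b that destroys their own rods, so a transcript of Pde6b in these tumors need not stand for a working enzyme.

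Counts summed to between 6218378 and 7279811 per GMYC tumor and between 4602294 and 6317404 per GTML tumor. Values are given as CPM, counts scaled to a library of 1000000 counts with edgeR's TMM factors, and a difference between the models as the log2 fold change of GTML over GMYC with its standard error (SE) from edgeR's quasi-likelihood test, adjusted over 21024 genes by Benjamini and Hochberg. A gene was called at an adjusted p under 0.01 with a log2 fold change beyond 1, and an adjusted p under 0.05 was read as a second, looser rule. The p-values measure the spread between these biopsies, and in bulk tissue a smaller number of expressing cells cannot be told apart from less RNA in each cell. Otx2, a homeobox gene that marks this tumor type, was present in all 14 tumors at 237 to 377 CPM. Tumors GTML 2 and GTML 3 stood apart for the photoreceptor genes. GTML 2 also had more of the SHH pathway transcripts Gli1 (14.1 CPM, at most 3.58 CPM in another tumor) and Gli2 (110 CPM against at most 70.5 CPM). Npr3, whose protein the study uses as a marker of medulloblastoma other than SHH, was highest there too. It was at 176 CPM against at most 67.4 CPM. The study describes an outlying GTML tumor with SHH-like features and leaves a GTML tumor out of some comparisons, and the labels do not mark which. Counts on small nucleolar RNAs took a share that also separated GMYC 1 to 4 and GTML 1 and 2, each above 0.3%, from the remaining 8 tumors. This split was seen in the counts and is no label of the study. It followed the order of the samples in the series, where GMYC 1 to 4 and GTML 1 and 2 come before the other 8. What that order stands for is not given, so it and the split cannot be told apart. Values within each side are given where the differences are reported.

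All 9 genes had a higher fitted level in GTML tumors, with a median log2 fold change of 3.90 against 0.036 over all genes tested. Of the 9, 7 passed an adjusted p of 0.05, where 11.5% of all genes tested were higher in GTML by that rule. Cngb1 alone was called, where 2.11% of all genes were called in that direction. Pde6g and Grk1 passed neither rule. The filter kept genes above 1 CPM in at least 3 tumors. Gnat1, Pde6a, Cnga1, Cngb1 and Rcvrn exceeded 1 CPM in fewer than 3 GMYC tumors and so passed only because of GTML tumors, which means that these counts and the median describe the genes and are no support of their own. Without any filter the same 7 genes had adjusted p-values from 0.00281 for Cngb1 to 0.0397 for Cnga1. The counts turned on the tool, since DESeq2 called 6 of the 9 after replacing the GTML 3 count of Gnat1, Pde6a and Cnga1 as an outlier, while limma-voom called Cngb1 (adjusted p = 0.00712) and left 2 genes, Cngb1 and Sag, past 0.05.

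**Figure D1:**
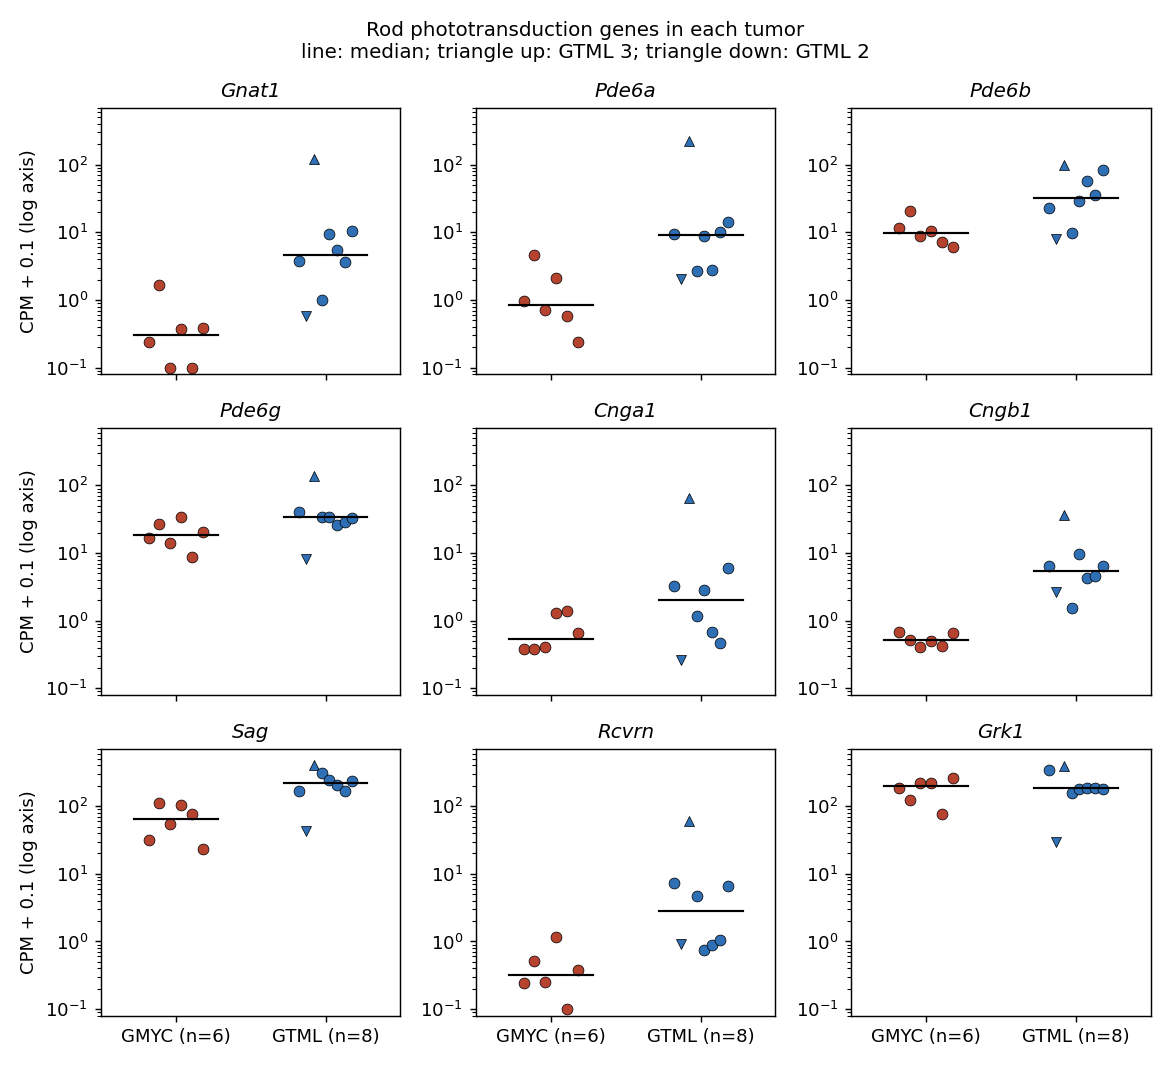
Each panel shows 1 gene as CPM + 0.1 on a log axis in 6 GMYC and 8 GTML tumors, with the median as a line. GTML 3 is the highest of the 14 tumors in every panel, and Cngb1 is the only gene whose lowest GTML tumor, at 1.46 CPM, lies above its highest GMYC tumor, at 0.573 CPM.

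RefSeq promoter windows, 250 bases before to 50 bases after the transcription start on the GRCm38.p6 assembly, were at hand for 5 of the 9 genes, namely Pde6b, Cnga1, Cngb1, Sag and Grk1. Capitals mark every match, on either strand, to TAATCC, the core bound by the photoreceptor homeodomain proteins CRX and OTX2, to TGCTGA, part of the element bound by NRL, or to CACGTG, the E-box bound by MYC proteins. No 2 matches overlapped. The window of Cngb1 (chr8:95306536-95306835, minus strand) is shown because Cngb1 separated the models, those of Sag (chr1:87803430-87803729, plus strand) and Cnga1 (chr5:72642703-72643002, minus strand) because they also held TAATCC, and that of Grk1 (chr8:13404831-13405130, plus strand) because Grk1 differed least.
Cngb1: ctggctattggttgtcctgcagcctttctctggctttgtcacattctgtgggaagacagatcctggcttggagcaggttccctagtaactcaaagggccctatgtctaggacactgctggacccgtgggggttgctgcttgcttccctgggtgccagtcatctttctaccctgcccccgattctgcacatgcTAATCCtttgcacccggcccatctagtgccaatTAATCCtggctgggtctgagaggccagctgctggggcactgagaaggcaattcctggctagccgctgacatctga
Sag: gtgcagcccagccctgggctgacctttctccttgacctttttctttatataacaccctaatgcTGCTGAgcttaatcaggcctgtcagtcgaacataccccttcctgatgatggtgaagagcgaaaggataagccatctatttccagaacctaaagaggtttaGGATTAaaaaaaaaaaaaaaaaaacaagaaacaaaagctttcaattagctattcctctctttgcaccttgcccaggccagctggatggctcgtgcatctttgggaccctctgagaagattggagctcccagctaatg
Cnga1: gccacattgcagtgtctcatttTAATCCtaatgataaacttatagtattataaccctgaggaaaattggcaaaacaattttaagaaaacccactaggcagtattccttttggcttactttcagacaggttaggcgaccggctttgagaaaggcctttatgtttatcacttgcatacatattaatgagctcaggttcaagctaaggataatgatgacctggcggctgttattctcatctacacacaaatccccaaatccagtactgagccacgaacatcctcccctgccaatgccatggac
Grk1: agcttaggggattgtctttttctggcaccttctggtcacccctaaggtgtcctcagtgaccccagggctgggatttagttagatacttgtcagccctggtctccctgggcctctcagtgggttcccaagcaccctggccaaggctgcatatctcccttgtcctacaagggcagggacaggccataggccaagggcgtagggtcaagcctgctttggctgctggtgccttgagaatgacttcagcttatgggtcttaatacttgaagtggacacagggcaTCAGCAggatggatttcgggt
The Cngb1 window held 2 copies of TAATCC and neither of the other motifs. The Sag window held 1 copy of TAATCC, read as GGATTA on the strand shown, and 1 of TGCTGA. Cnga1 held 1 copy of TAATCC. Grk1 had 1 TGCTGA, read as TCAGCA just after the start, and Pde6b, whose window is not shown, had 1 TGCTGA. None of the 5 windows held CACGTG. Among all 32851 promoters of the table, 7.06% held TAATCC, 19.5% TGCTGA and 7.15% CACGTG. A match of letters does not show binding, and a window without one says nothing of the factor.

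Gnat1 (ENSMUSG00000034837), the alpha subunit of rod transducin, is the switch of the cascade. In GMYC tumors it was at 0 CPM at its lowest, 0.206 CPM at the median and 1.54 CPM at its highest, with 16 counts in all 6 tumors together. No count fell in GMYC 3 or GMYC 5, which allows up to 0.458 and 0.482 CPM. In GTML tumors Gnat1 was at 0.487, 4.56 and 121 CPM at the lowest, median and highest. Of the 8 GTML tumors 6 lay above every GMYC tumor, GTML 2 and GTML 4 lay inside the GMYC range, and GTML 3 held 79.5% of the 915 GTML counts. Its log2 fold change was 5.59 (SE 1.35, adjusted p = 0.0121), a 48.3-fold difference in fitted level. Without GTML 3 it was 3.60 (adjusted p = 0.0146), and without GTML 2 it was 5.78 with an adjusted p of 0.00534, past the threshold for a call.

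Pde6a and Pde6b encode the catalytic subunits of rod phosphodiesterase, which work as a heterodimer. Pde6a (ENSMUSG00000024575) was at 0.141, 0.736 and 4.49 CPM at the lowest, median and highest GMYC tumor and at 1.95, 9.05 and 226 CPM in GTML tumors. The 5 highest GTML tumors lay above all GMYC tumors, and GTML 3 held 83.0% of the GTML counts. Its log2 fold change was 4.56 (SE 1.24, adjusted p = 0.0193), and 2.28 (adjusted p = 0.0322) without GTML 3. Pde6b (ENSMUSG00000029491) was counted in every tumor, at 5.93, 9.61 and 20.8 CPM in GMYC tumors against 7.95, 32.5 and 98.6 CPM in GTML tumors. Here GTML 8, at 83.1 CPM, came close to GTML 3, which held 29.8% of the GTML counts, and GTML 2 and GTML 4 lay inside the GMYC range. For Pde6b the log2 fold change was 2.00 (SE 0.532, adjusted p = 0.0176). It was 1.71 (adjusted p = 0.0309) without GTML 3 and 2.16 (adjusted p = 0.00548), a call, without GTML 2. Pde6g (ENSMUSG00000025386) encodes the inhibitory gamma subunit that transducin pulls away. It was at 8.52, 18.3 and 33.8 CPM in GMYC tumors and at 7.95, 33.6 and 136 CPM in GTML tumors, whose next highest value was 40.8 CPM. The models overlapped, with 4 of 8 GTML tumors above every GMYC tumor, and the log2 fold change of 1.10 (SE 0.476) had an adjusted p of 0.104. Without GTML 2 it was 1.26 with an adjusted p of 0.0325, and without GTML 3 it was 0.56 with an adjusted p of 0.257.

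Cnga1 and Cngb1 encode the alpha and beta subunits of the rod cyclic nucleotide-gated channel. Cngb1 (ENSMUSG00000031789), whose locus also makes glutamic acid-rich proteins of the rod disc rim, was at 0.306, 0.412 and 0.573 CPM at the lowest, median and highest GMYC tumor. The 6 GMYC tumors held 18 counts together. In GTML tumors it was at 1.46, 5.38 and 36.5 CPM, lowest in GTML 4 and highest in GTML 3. Mean levels were 0.432 ± 0.116 CPM (SD, n = 6) in GMYC and 8.95 ± 11.4 CPM (SD, n = 8) in GTML tumors, or 5.01 ± 2.72 CPM (SD, n = 7) without GTML 3. All 8 GTML tumors lay above all 6 GMYC tumors, a separation seen for 2.14% of all genes tested and for no other of the 9. This gave a log2 fold change of 4.31 (SE 0.715, adjusted p = 0.00288), a 19.8-fold difference. It was 3.47 (adjusted p = 0.00101) without GTML 3 and 4.45 (adjusted p = 0.00145) without GTML 2. The call was lost without GMYC 3, where the adjusted p was 0.0106 and the log2 fold change 4.23. Cnga1 (ENSMUSG00000067220) behaved less evenly. It was at 0.281, 0.435 and 1.29 CPM in GMYC tumors and at 0.162, 1.94 and 65.8 CPM in GTML tumors, where GTML 3 held 82.8% of the 478 counts and the next tumor was at 5.95 CPM. The lowest of all 14 tumors was GTML 2, and 4 of 8 GTML tumors lay above every GMYC tumor. Cnga1 had a log2 fold change of 3.90 (SE 1.23, adjusted p = 0.0357). It fell to 1.61 (adjusted p = 0.124) without GTML 3, and the adjusted p rose to between 0.0571 and 0.0776 when GMYC 1, 2, 3, 5 or 6 was left out.

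The genes that shut the cascade off or regulate that step fell into unlike patterns. Sag (ENSMUSG00000056055), the rod arrestin, was abundant in both models, at 23.4, 64.8 and 110.5 CPM in GMYC tumors and at 42.7, 221.6 and 404.5 CPM in GTML tumors. Means were 66.2 ± 36.3 CPM (SD, n = 6) and 221.2 ± 106.3 CPM (SD, n = 8). GTML 2 was the only GTML tumor within the GMYC range, and the other 7 lay above it. The log2 fold change was 1.74 (SE 0.425, adjusted p = 0.0127). GTML 3 weighed less here, with 24.5% of the GTML counts, and without it the log2 fold change was 1.56 (adjusted p = 0.0215). Without GTML 2 the models did not overlap for Sag, and the log2 fold change of 1.90 was called (adjusted p = 0.00239). Rcvrn (ENSMUSG00000020907), recoverin, was at 0, 0.218 and 1.08 CPM in GMYC tumors, with 15 counts in all. It was at 0.645, 2.75 and 59.4 CPM in GTML tumors. GTML 1, 3, 4 and 8 lay above every GMYC tumor and GTML 2, 5, 6 and 7 stayed below 1 CPM, inside the GMYC range. The log2 fold change of Rcvrn was 4.76 (SE 1.21, adjusted p = 0.0146). It was 3.05 (adjusted p = 0.0205) without GTML 3 and 4.94 (adjusted p = 0.00756), a call, without GTML 2. Grk1 (ENSMUSG00000031450), the receptor kinase, was at 75.7, 199.5 and 263.6 CPM in GMYC tumors and at 29.5, 183.1 and 393.0 CPM in GTML tumors. Means were 179.9 ± 69.0 CPM (SD, n = 6) and 206.4 ± 112.7 CPM (SD, n = 8), and the ranges overlapped almost whole. The log2 fold change of 0.20 (SE 0.396, adjusted p = 0.735) was smaller than its error, and it was -0.00021 without GTML 3.

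**Figure D2:**
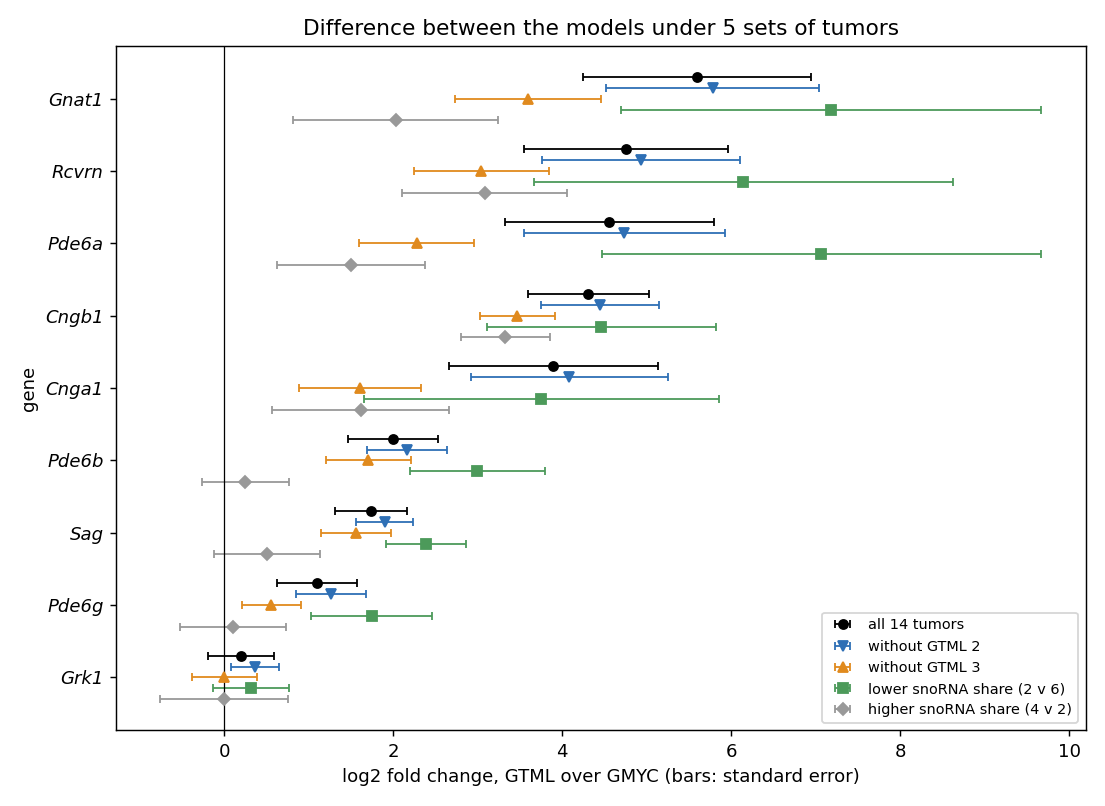
Log2 fold changes of GTML over GMYC (x axis) with standard errors as bars are shown for the 9 genes (y axis) over all 14 tumors, without GTML 2, without GTML 3, and within each side of the small nucleolar RNA split. Leaving out GTML 3 lowers Gnat1 from 5.59 to 3.60 and Cnga1 from 3.90 to 1.61, while Cngb1 stays between 3.33 and 4.46 in the 5 sets.

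The tumor with the most rod transcript was the same for every gene. GTML 3 was the highest of 14 tumors for all 9 genes, and each of them exceeded 10 CPM there, summing to 1541 CPM. The remaining GTML tumors except GTML 2 summed to between 435 and 603 CPM, and GMYC tumors to between 169 and 368 CPM. GTML 2 summed to 94.2 CPM, below every GMYC tumor, with most of the sum from Sag (42.7 CPM) and Grk1 (29.5 CPM). It was the lowest GTML tumor for 7 of the 9 genes but the lowest of all 14 for 3. By the mean log2 CPM of the 9 genes (prior count 2) GTML 2 was at 2.00, inside the GMYC range of 1.67 to 2.72. GTML 3 was 26.5 times the GTML median for Gnat1, 25.0 times for Pde6a, 33.8 times for Cnga1 and 21.6 times for Rcvrn. For Sag and Grk1 it was 1.83 and 2.15 times the median. With both tumors left out, Gnat1 (log2 fold change 3.82, adjusted p = 0.0061), Cngb1 (3.59, adjusted p = 0.000773) and Sag (1.75, adjusted p = 0.00426) were called. Pde6a, Pde6b and Rcvrn then had adjusted p-values of 0.0168, 0.0104 and 0.0112, and Cnga1 one of 0.0514.

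Other transcripts moved with GTML 3. GTML 3 was the highest of 14 tumors for 16 of 19 further genes of rod signaling and the visual cycle for 9 of 11 genes of outer segment structure, for 8 of 12 cone genes, and for 3 of 10 photoreceptor transcription factors. The cone genes summed to 1364 CPM there against 216 to 823 CPM in the other tumors. A list of 9 genes of tumor identity, proliferation and glial or SHH features summed to 1210 CPM in GTML 3, the lowest of the 14 tumors, against 1321 to 1866 CPM. The proliferation gene Mki67 gave the largest part, at 544 CPM there and up to 1069 CPM in another tumor. Otx2 was at 329 CPM in GTML 3, near the GTML median of 326 CPM, so the sum is no measure of tumor identity alone. A panel of 6 measured pinealocyte genes summed to 420.6 CPM in GTML 3 and to between 24.0 and 344 CPM elsewhere. Cacna1f, a calcium channel gene also used at photoreceptor synapses, gave 223 CPM of that sum. It was the only 1 of the 6 that was highest in GTML 3. Tph1, which opens the serotonin and melatonin pathway, was at 69.6 CPM in GTML 3 and up to 90.3 CPM in another tumor, and Aanat, the enzyme that times melatonin synthesis, was at 1.99 CPM against up to 3.51 CPM. Retinal ON bipolar genes summed to 142 CPM in GTML 3 against 23.3 to 147 CPM in the others. Of 8 retinal pigment epithelium genes 7 had a count in GTML 3, with a sum of 44.8 CPM against 11.9 to 67.0 CPM. Rpe65 had 0 counts and Tyr 2 counts there, while 2 others were highest in GTML 3. These were Tyrp1, at 14.4 CPM against at most 11.1 CPM elsewhere, and Lrat, at 2.99 CPM against at most 0.88 CPM. Sums for choroid plexus, astrocyte, oligodendrocyte, microglia, cerebellar granule neuron and red blood cell genes in GTML 3 lay inside the range of the other 13 tumors. Otx2 alone gave 329 of the 345 CPM of the choroid plexus sum there. Slc1a2 (Glt1) gave 710 of the 851 CPM for astrocytes, and Neurod1 206 of the 368 CPM for granule neurons. The choroid plexus, astrocyte and granule neuron sums are therefore no measure of those cell types alone. Between the models, 3 of the 6 pinealocyte genes were higher in GTML at an adjusted p under 0.05, against 11.5% of all genes. Bsx among them was at 7.86 CPM in GMYC 2 and at most 0.143 CPM in another GMYC tumor. It passed the filter only because of GTML tumors, so this count is a description. Of 5 retinal pigment epithelium genes tested, 2 were higher in GTML at 0.05. Tyrp1 among them was called (3.07, adjusted p = 0.00134 from edgeR), where 2.11% of all genes were called in that direction. Tyrp1 exceeded 1 CPM in fewer than 3 GMYC tumors and so passed the filter only because of GTML tumors. Called lower in GTML were 3 of 5 red blood cell genes, against 1.1% of all genes. Cerebellar granule neuron genes were lower at 0.05 for 3 of 7 tested, against 9.71% of all genes. Of 7 astrocyte genes 0 had a higher fitted level in GTML, where the median log2 fold change of all genes tested was 0.036. None of these 7 passed 0.05 in either direction. The part of any of these cell types in the rod gene differences was not tested.

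The small nucleolar RNA split moved with the models as well, since 2 of 8 GTML but 4 of 6 GMYC tumors had the higher share. Within the lower share, with 2 GMYC and 6 GTML tumors, 7 of the 9 genes did not overlap between the models, where 16.8% of all genes tested were so separated in that direction. Cnga1 and Grk1 overlapped. The log2 fold change there was 7.18 for Gnat1 (adjusted p = 0.0778), 7.07 for Pde6a (adjusted p = 0.0907), 6.15 for Rcvrn (adjusted p = 0.114) and 4.46 for Cngb1 (adjusted p = 0.0566). Pde6b, at 2.99 (adjusted p = 0.0405), and Sag, at 2.39 (adjusted p = 0.0192), passed 0.05, and Pde6g (1.74, adjusted p = 0.117), Cnga1 (3.75, adjusted p = 0.23) and Grk1 (0.32, adjusted p = 0.642) did not. Within the higher share, with 4 GMYC tumors against GTML 1 and GTML 2, no gene of the 9 passed. Cngb1 had the largest log2 fold change there, 3.33 (adjusted p = 0.153), and alone did not overlap, where 11.5% of all genes tested did not. Rcvrn was at 3.08, Gnat1 at 2.03, Cnga1 at 1.61, Pde6a at 1.50, Sag at 0.50, Pde6b at 0.25, Pde6g at 0.11 and Grk1 at -0.0019, with adjusted p-values from 0.304 to 0.999. With a term for the split in the fit over all 14 tumors, Cngb1 remained past the threshold (3.89, adjusted p = 0.0089) and the other 8 genes had adjusted p-values of at least 0.0534.

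Levels of different genes were compared per exon length, as TPM, counts divided by exon length and scaled to a sum of 1000000 per tumor. In GMYC tumors the order of the medians was Grk1 (74.2 TPM), Pde6g (27.2), Sag (24.6), Pde6b (6.47), Rcvrn (0.720), Pde6a (0.513), Cnga1 (0.237), Gnat1 (0.234) and Cngb1 (0.149). The lowest GMYC value of Pde6b, 4.19 TPM, lay above the highest of Rcvrn, 3.63 TPM, so the first 4 genes were separated from the other 5, while the ranges of neighbours within each of these sets overlapped. Kinase, arrestin and the gamma and beta subunits of phosphodiesterase were measured in tumors in which the GMYC medians of rod transducin, the alpha subunit and both channel subunits lay under 1 TPM. In GTML tumors the order was Sag (101.8 TPM), Grk1 (84.8), Pde6g (57.3), Pde6b (26.2), Rcvrn (10.1), Pde6a (7.21), Gnat1 (5.96), Cngb1 (2.09) and Cnga1 (1.16). All neighbours overlapped in range there, Pde6b and Rcvrn included. The partners of the phosphodiesterase dimer were unequal. Pde6b exceeded Pde6a by 2.23 to 39.2 times per length in 13 tumors, whereas in GTML 3 the ratio was 0.406. The exon lengths join all annotated isoforms of a gene, so a level per length is low where the tumor uses a short isoform. No exon of the 9 genes overlapped an exon of another gene in the GRCm38 annotation.

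**Figure D3:**
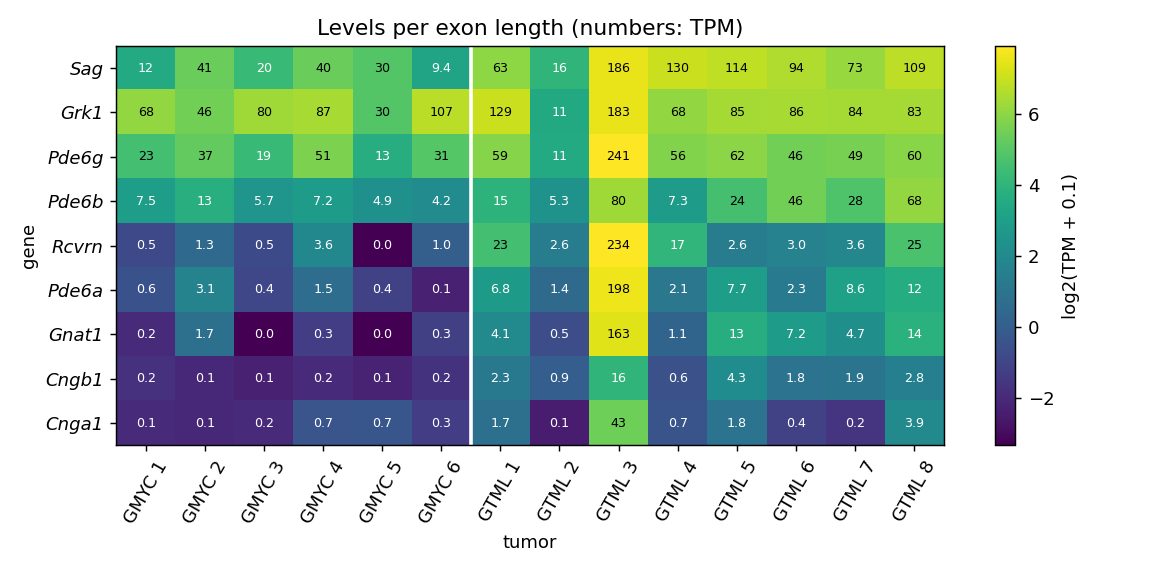
TPM of the 9 genes (rows, ordered by the GTML median) in the 14 tumors (columns) are printed in each cell, and the color scale is log2(TPM + 0.1). Sag, Grk1, Pde6g and Pde6b lead in every GMYC tumor, and in GTML 3 Pde6a (198 TPM), Gnat1 (163 TPM) and Rcvrn (234 TPM) reach the level of Sag (186 TPM).

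To see whether the differences followed rod identity, each rod gene except Grk1 and Rcvrn was set against its cone paralog within the same tumor. The measure was the log2 ratio of CPM (prior count 2). A two-sided exact permutation test compared the models, with p adjusted over 7 pairs. Grk1 and Rcvrn had no pair, so the ratios say nothing of them. Pairs, measure and test were chosen with the data already seen, and Pde6c serves in 2 pairs. The ratio is not scaled by gene length, so only its difference between tumors is read. Gnat1 stood at -7.24 ± 0.92 (SD, n = 6) relative to Gnat2 in GMYC tumors and at -3.69 ± 2.07 (SD, n = 8) in GTML tumors, a difference of 3.54 (SE 0.823, exact permutation p = 0.00266, adjusted p = 0.00932). With a prior count of 0.5 it was 4.53, and Gnat1 had 0 to 11 counts per GMYC tumor. Gnat2, cone transducin, was itself at a median of 87.6 CPM in GMYC and 62.2 CPM in GTML tumors, and it had more counts than Gnat1 in all 14 tumors. Cngb1 relative to Cngb3 rose from -3.21 ± 1.29 (SD, n = 6) to -0.44 ± 0.79 (SD, n = 8), a difference of 2.77 (SE 0.597, exact permutation p = 0.000666, adjusted p = 0.00466). With a prior count of 0.5 it was 3.26. Cngb1 had 2 to 4 counts per GMYC tumor, so its GMYC ratio mostly reflects Cngb3, at 1.54 to 24.2 CPM there. Gnat1 and Cngb1 passed the filter only because of GTML tumors, so the tests of their ratios are no support of their own. Pde6g relative to Pde6h rose from 0.74 ± 2.20 (SD, n = 6) to 3.81 ± 1.31 (SD, n = 8), a difference of 3.07 (SE 1.01, exact permutation p = 0.00866, adjusted p = 0.0202). In that pair the cone gene had a lower fitted level in GTML tumors, with a log2 fold change of -2.37 (SE 0.857, adjusted p = 0.0581 from edgeR) for Pde6h. The other 4 pairs did not pass. The difference was 0.27 (SE 0.784) for Pde6a and -0.97 (SE 0.801) for Pde6b, both against Pde6c, -0.43 (SE 0.765) for Cnga1 against Cnga3, and 0.24 (SE 0.695) for Sag against Arr3, with exact permutation adjusted p-values of 0.396 to 0.747. With errors of this size the comparisons do not show that the ratios were equal. The cone genes of these pairs were higher in GTML tumors by 2.14 (Pde6c, adjusted p = 0.0394), 2.22 (Cnga3, adjusted p = 0.0766) and 2.09 (Arr3, adjusted p = 0.0627) on the log2 scale in edgeR's test. Within the small nucleolar RNA sides the differences were 2.38 and 4.16 for Gnat1, 3.57 and 2.96 for Cngb1 and 2.34 and 3.78 for Pde6g in the higher and the lower share, where no exact permutation p can fall below 0.133 and 0.0714.

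**Figure D4:**
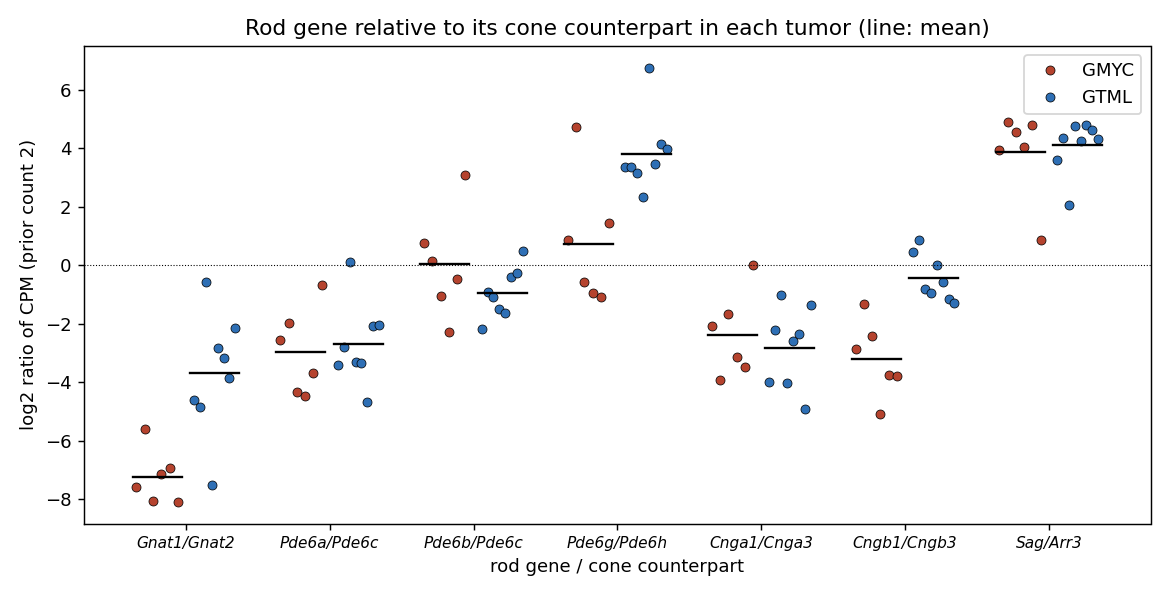
The log2 ratio of a rod gene's CPM to its cone counterpart's (y axis, prior count 2) is plotted for 7 pairs in each of 6 GMYC and 8 GTML tumors, with means as lines. Cngb1/Cngb3, with 2 to 4 Cngb1 counts per GMYC tumor, shifts from a mean of -3.21 to -0.44, and Gnat1/Gnat2 lies below 0 in every tumor.

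Lists of other photoreceptor genes were read against the 11.5% of all genes tested that were higher in GTML at an adjusted p under 0.05. Of 19 further genes of rod signaling and the visual cycle, 5 were higher by that rule, none was lower, and Gucy2f, a retinal guanylate cyclase that restores cyclic GMP, was called at 4.04 (SE 0.757, adjusted p = 0.00477). The median log2 fold change of these 19 genes was 0.35. Abca4, which clears retinoid from the outer segment disc, was at 2.33 (SE 0.575, adjusted p = 0.0133). Of 11 cone genes tested 1, Pde6c, passed 0.05. Of 11 outer segment genes 3 passed in the GTML direction, among them Impg1, a matrix proteoglycan, at 4.59 (adjusted p = 0.0116), which reached 0.562 CPM at most in GMYC tumors and passed the filter only through GTML tumors, the disc protein gene Rom1 at 1.72 (adjusted p = 0.0201), and the called Fscn2, an actin bundler, at 1.55 (adjusted p = 0.00971). None of the 10 photoreceptor transcription factors was higher by that rule. Nr2e3, which favors the rod over the cone program, was at 2.63 (adjusted p = 0.0581), Esrrb at 1.95 (adjusted p = 0.0868), and Neurod1 was lower in GTML by a small margin, at -0.23 (adjusted p = 0.0426). Crx (-0.24, adjusted p = 0.424), Otx2 (0.03, adjusted p = 0.849) and Nrl (0.50, adjusted p = 0.491) did not pass.

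Outside these lists, the 8 genes whose level most followed the mean log2 CPM of the 9 genes across the 14 tumors were named by Spearman's rank correlation. The tumors share the model and, for the highest value, GTML 3, so the correlation is a description. Agbl3 had a coefficient of 0.965, Inpp1, Larp6, Cys1 and Sec22a one of 0.960, Slc1a7 and Adra2c one of 0.952, and Ano2 one of 0.947. Slc1a7, a glutamate transporter of the retina, ranged from 0 to 5.65 CPM in GMYC tumors and from 3.41 to 63.6 CPM in GTML tumors (log2 fold change 3.81, SE 0.889, adjusted p = 0.0106), and passed the filter only through GTML tumors. Ano2, a calcium-activated chloride channel of photoreceptor terminals and olfactory neurons, ranged from 7.49 to 28.6 CPM and from 11.4 to 133 CPM (log2 fold change 2.52, SE 0.447, adjusted p = 0.00363), and was the only one of the 8 to be called.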

How the data were processed

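Total RNA of 14 tumor biopsies (6 GMYC, 8 GTML) was sequenced on an Ion Torrent platform. The authors mapped reads with STAR, then Bowtie (mouse build mm9), assigned them to GENCODE genes with featureCounts, and deposited raw counts per gene; handling of duplicates and strand is not given in the sources used here. A second deposited table has 18 columns whose names match no sample label, so cultured lines were not analysed here. Gene symbols and exon lengths were matched by Ensembl identifier to GRCm38 for 32620 of 37310 genes (87.4%). GTML was compared with GMYC by edgeR 4.0.16 (R 4.3.3), with TMM scaling and genes above 1 CPM in at least 3 tumors; SEs were taken from the fold change and the F statistic. Depth limits low genes: a count of 0 allows up to 3 counts, and such floors cover counting error only. The code was tested on simulated counts. Alternatives were DESeq2 1.42.0, limma-voom (limma 3.58.1), other scalings and filters, a replicate block, each tumor left out, GTML 2 and 3 left out together, and the small nucleolar RNA split (0.3% of counts). Rod to cone ratios were tested with scipy 1.17.1 and figures drawn with matplotlib 3.10.9. The named genes were all 9 members; in the 4 photoreceptor lists, the called genes and the 3 with the smallest p; and the 8 genes most like the mean of the members. Cnga3, Gnat2, Crx, Otx2, Nrl, Gli1, Gli2, Npr3, Mki67, Cacna1f, Tph1, Aanat, Bsx, Slc1a2, Rpe65, Tyr, Tyrp1 and Lrat were named outside that rule, after their values were seen. A gene that the rule names is not reported here. The members and lists were chosen with earlier results of these data known.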

Additional observations from a re-analysis of the deposited data

Results flagged for a closer look

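The 9 genes and 2 models formed 18 groups, in which Dixon's 95% limit would flag 0.9 if values were normally spread. On CPM, 8 held a tumor whose distance from its nearest neighbour was large for the range of the group by that limit. GTML 3 was that tumor in 6 groups, at 121 CPM for Gnat1 (next 10.5), 226 CPM for Pde6a (next 14.0), 136 CPM for Pde6g (next 40.8), 65.8 CPM for Cnga1 (next 5.95), 36.5 CPM for Cngb1 (next 9.67) and 59.4 CPM for Rcvrn (next 7.22). GMYC 2 was set apart within its model for a pair of genes, at 1.54 CPM for Gnat1 (next 0.282) and 20.8 CPM for Pde6b (next 11.5). CPM is skewed toward high values, so 8 against 0.9 cannot be read as an excess over chance. The groups share tumors and are not independent, and no cause was tested.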

How the results depend on the processing

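Of the 9 genes, 1 was called, and this became 6 with DESeq2, 3 without GTML tumors 2 and 3, 0 within the higher and 0 within the lower small nucleolar RNA share, and 0 to 5 with 1 tumor left out (0 without GMYC 3, 5 without GTML 2). For Gnat1, Pde6a and Cnga1 DESeq2 replaced the count of GTML 3 as an outlier. The 7 genes past an adjusted p of 0.05 became 2 with limma-voom, 1 with a term for the split, 0 and 2 within the higher and lower share, and 6 to 8 with 1 tumor left out. The median log2 fold change of 3.90 was 2.03 with DESeq2, 1.80 with limma-voom, 2.05 with filterByExpr (which dropped Cnga1 and Rcvrn), 1.90 without GTML tumors 2 and 3, 1.50 within the higher share, and 1.71 to 4.18 with 1 tumor left out, lowest without GTML 3. The 1 gene without overlap became 2 without GTML tumors 2 and 3, 7 within the lower share, and 1 to 2 with 1 tumor left out.

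Over all genes, 444 calls higher in GTML and 232 higher in GMYC became 1312 and 579 with DESeq2, 269 and 149 without a filter, 812 and 381 without GTML tumors 2 and 3, 169 and 127 with a term for the split, 0 and 2 within the higher share, 78 and 41 within the lower share, and 73 to 1029 and 39 to 583 with 1 tumor left out. With limma-voom 431 were higher in GMYC.

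Tumors share replicate numbers 1 to 6, but the correlations of same-numbered tumors ran from -0.212 to 0.24, so the numbers give no pairing. With the number as a block 0 of the 9 genes were called, 1 passed 0.05 (Cngb1, 3.72, adjusted p = 0.0384), the median was 1.84, and 7 and 4 genes were called in all. Those 12 tumors without the block, a fit chosen after seeing the data, gave 63 and 26.

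Directions changed only for values that had not passed a test. Grk1 ran from -0.00021 (without GTML 3) to 0.37 with 1 tumor left out and was at -0.0019 within the higher share. The Pde6a to Pde6c difference was -0.01 without GMYC 3, -0.04 without GMYC 4, -0.13 without GTML 3 (0.72 at the other extreme, without GMYC 6), -0.18 without GTML tumors 2 and 3 and -0.38 within the lower share. Cnga1 to Cnga3 ran from -0.74 to 0.047 (without GMYC 6), and Sag to Arr3 from -0.36 (without GMYC 6) to 0.53, and was -0.39 within the higher share. The causes were not tested.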

Other observations

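Among 8 genes of retinal ON bipolar cells, 2 were higher and 1 was lower in GTML tumors at an adjusted p under 0.05, against 11.5% and 9.71% of all genes tested. Grm6, the glutamate receptor of these cells, was higher in GTML tumors by 3.24 on the log2 scale (SE 0.696, adjusted p = 0.00791 from edgeR), from a median of 0.371 to 3.31 CPM. Trpm1, the channel it controls, was higher by 2.69 (SE 0.593, adjusted p = 0.00861), from a median of 0.484 to 2.69 CPM. Neither gene reached 1 CPM in a GMYC tumor, so both passed the filter only through GTML tumors. Isl1, a transcription factor of bipolar and many other neurons, was lower by a log2 fold change of -3.40 (SE 0.889, adjusted p = 0.0165). Among 6 measured pinealocyte genes 3 were higher at that rule, of which Bsx passed the filter only through GTML tumors. Cacna1f, a calcium channel also used at photoreceptor synapses, was higher in GTML by 2.39 (SE 0.482, adjusted p = 0.00639), and Tph1 by 2.78 (SE 0.766, adjusted p = 0.0205). These genes were named after their values were seen.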
